A study of Canis lupus familiaris with 5 samples.

Results

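ASNS (ENSCAFG00000002222), PSAT1 (ENSCAFG00000001570), PSPH (ENSCAFG00000010123) and SHMT2 (ENSCAFG00000000195) were followed across the cell types of canine bone marrow, with pro-B cells as the reference point. The genes were chosen by name as asparagine and serine synthesis genes, after ASNS and serine synthesis had stood out in pro-B cells of these same libraries. Of the 5 genes chosen, 4 have a row under their symbol among the 20257 features of the deposited matrices. PHGDH has no row under its symbol and was not analysed here, and 4432 features carry only an Ensembl identifier. Because the genes were chosen with these levels known, their levels by cell type are given as descriptions, with no test. Their difference between cycling and non-cycling pro-B cells was tested.

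ASNS (asparagine synthetase) makes asparagine from aspartate, with glutamine as the nitrogen donor. PHGDH, PSAT1 and PSPH carry out the successive steps that turn the glycolytic intermediate 3-phosphoglycerate into serine, and SHMT2 is the mitochondrial enzyme that splits serine into glycine and a one-carbon unit used for nucleotide synthesis. ASNS and the serine synthesis genes are known targets of ATF4, the transcription factor of the amino acid and integrated stress response. Pro-B cells are the early B-lineage precursors that rearrange immunoglobulin genes. They express VPREB1, a part of the surrogate light chain, and DNTT, the polymerase that adds untemplated bases at the joints. Dependence of lymphoid leukemias on external asparagine is the basis of treatment with asparaginase.

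The study profiled femoral marrow of 3 healthy dogs, all wild type, by droplet single-cell RNA sequencing of transcript 3' ends. Red cells were lysed, and the remaining marrow was loaded unsorted in 3 libraries (whole marrow 1 to 3). Viable cells positive for CD34, a surface protein of stem and progenitor cells, were sorted by flow cytometry from marrows 2 and 3 in 2 libraries (sorted 1 and 2). Sorted and unsorted libraries therefore share dogs. Each library is 1 sample, and nothing in the labels states a second culture or run of a dog.

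The libraries held 46114431 to 54074420 unique molecular identifiers (UMIs, 1 per captured transcript) in whole marrow, and 62188030 and 70169186 in the sorted samples. Of 27953 barcodes, 24708 were kept, those with 200 genes or more and a mitochondrial share of at most 10%. The median kept cell held 2694 to 4344 UMIs in whole marrow and 11622 and 14623 in sorted libraries, with mitochondrial shares of 1.1% to 1.76% and of 6.12% and 7.83%. Any pair of libraries shared 3 to 11 barcodes. Sorted 2 lost the most barcodes to the mitochondrial limit (1115). Levels are in counts per 1e6 UMIs (CPM) of the summed cells of a gate in a library. All intervals are 95% and, like the limits set by a count of 0, cover counting error only.

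Gates were set on raw UMIs. Pro-B cells had at least 3 VPREB1 UMIs. They were non-cycling with no UMI of MKI67 or TOP2A, which encode proliferation proteins, and cycling with at least 2. Non-cycling pro-B cells numbered 138, 31 and 157 in whole marrow and 1326 and 622 in sorted libraries, and cycling ones numbered 75, 25, 103, 683 and 873 in the same order. The other gates took MS4A1 (at least 2 UMIs, B cells), CD3E (at least 1, T cells), SULT1B1 plus TFPI (at least 4, stem-like cells), MPO (at least 0.1% of UMIs, neutrophil progenitors) and ELANE (at least 1%, promyelocytes). GATA1 (at least 2), AHSP (at least 0.2%, late erythroid cells) and VCAN (at least 2, monocyte lineage) completed the rule. Plasma cells and granule-rich neutrophils were added. A cell can be in several gates. In sorted 1 and 2, 517 of 2009 and 756 of 1495 pro-B cells also passed the stem-like gate.

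The pro-B label was checked against 11 markers of early B cells other than VPREB1 and CD79A, among them PAX5, EBF1, RAG1, DNTT and CD34, in sums of cells in exactly 1 gate. Of these, 9, 9 and 10 reached 20 CPM in the non-cycling sums of whole marrow, and 9 did in each sorted library. In cycling sums 8, 8 and 6 did in whole marrow and 7 in each sorted library. MS4A1 B cells of whole marrow held 4, 8 and 6 of them at that level, so in whole marrows 2 and 3 the count did not separate cycling pro-B from MS4A1 B cells. MME, a marker of early B precursors in other species, was at 0 in every pro-B sum. The CD79A row held 1491 to 12209 CPM in every gate and was not used to judge gates. Summed CPM of 6 mature neutrophil genes in non-cycling pro-B cells was 3805, 595 and 3141 in whole marrow, and 1.02 and 1.44 in sorted libraries. Their part in the results was not tested. Summed CPM of 9 T-cell genes other than CD3E was 199, 154 and 48.9 in whole-marrow and 156 and 250.4 in sorted non-cycling pro-B cells, against 2396 to 3164 in CD3E cells of whole marrow. In whole-marrow pro-B cells 6, 6 and 8 of the 9 were at 0, LCK and BCL11B among them.

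ASNS was highest in pro-B cells in 4 of the 5 libraries. In non-cycling pro-B cells its level was 1212, 1092 and 179.6 CPM in whole marrows 1 to 3, and 1168 and 789 CPM in sorted libraries 1 and 2. Over the 5 libraries this is 888 ± 429 CPM (SD between libraries, n = 5). The libraries come from 3 dogs and mix sorted with unsorted cells, so this SD is not a spread between independent dogs. Whole marrow 3 stood far below the other libraries, and its 139 cells in exactly 1 gate held 62.8 CPM. Markers bear out the pro-B label less well in those cells, as given below with the DNTT split. MPO-gate cells held 11, 11.8 and 3.67 CPM in whole marrow and 43.4 and 26.1 CPM in sorted libraries. Their label was checked in cells in exactly 1 gate. Of 3 other neutrophil progenitor genes, 2 reached 20 CPM in every library. In whole marrow 1 the median such cell held 952 UMIs, so few MPO UMIs pass the limit. In whole marrow 3 VPREB3 was 83.8 and PAX5 43.8 CPM. Summed CPM of 6 mature neutrophil genes was 5224, 4700 and 15789 in whole marrow, and 3.47 and 11.2 in sorted libraries. Within a library, non-cycling pro-B cells held 110.3, 92.5, 48.9, 26.9 and 30.2 times the ASNS level of MPO cells. No library's pro-B level overlapped any library's MPO level. How many of all features show no such overlap was not counted, and 51.9% were called between these gates in the fit given below.

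Cells of the stem-like gate came next, with 819, 417 and 326 CPM of ASNS in whole marrow and 381 and 378 CPM in sorted libraries. Their range overlapped that of both pro-B gates. Part of this level came from cells that were also in a pro-B gate: stem-like cells in no other gate held 106 and 112 CPM in sorted 1 and 2. Cycling pro-B cells held 943, 809, 223, 1122 and 699.9 CPM in library order, within the range of the non-cycling cells. In whole marrow 3 the stem-like gate was above both pro-B gates, but 20 of its 44 cells were also in a pro-B gate.

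The remaining gates were low in ASNS in whole marrow. GATA1 cells held 9.85, 15.8 and 6.03 CPM of ASNS in whole marrow and 50.0 and 27.8 CPM in sorted libraries. Except for CD3E cells, the other gates held 20 cells or more in whole marrow only. MS4A1 B cells, later in the B lineage, held 46.6, 6.54 and 3.99 CPM. VCAN cells held 4.89 to 17.0 CPM, AHSP cells 5.99 to 14.1, ELANE cells 3.00 to 8.07, plasma cells 3.08 to 8.50 and granule-rich neutrophils 1.34 to 5.44. All of these neighbours in the order overlap between libraries. CD3E cells held 6.49, 11.5 and 43.5 CPM in whole marrow but 240.0 and 307 CPM in 37 and 32 sorted cells. In sorted 1 the 14 cells in this gate alone held LCK at 12.6 CPM, BCL11B at 0 and DNTT at 278 CPM, which does not bear out the T label there. Only 9 such cells were in sorted 2, and their markers were not checked.

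**Figure D1:**
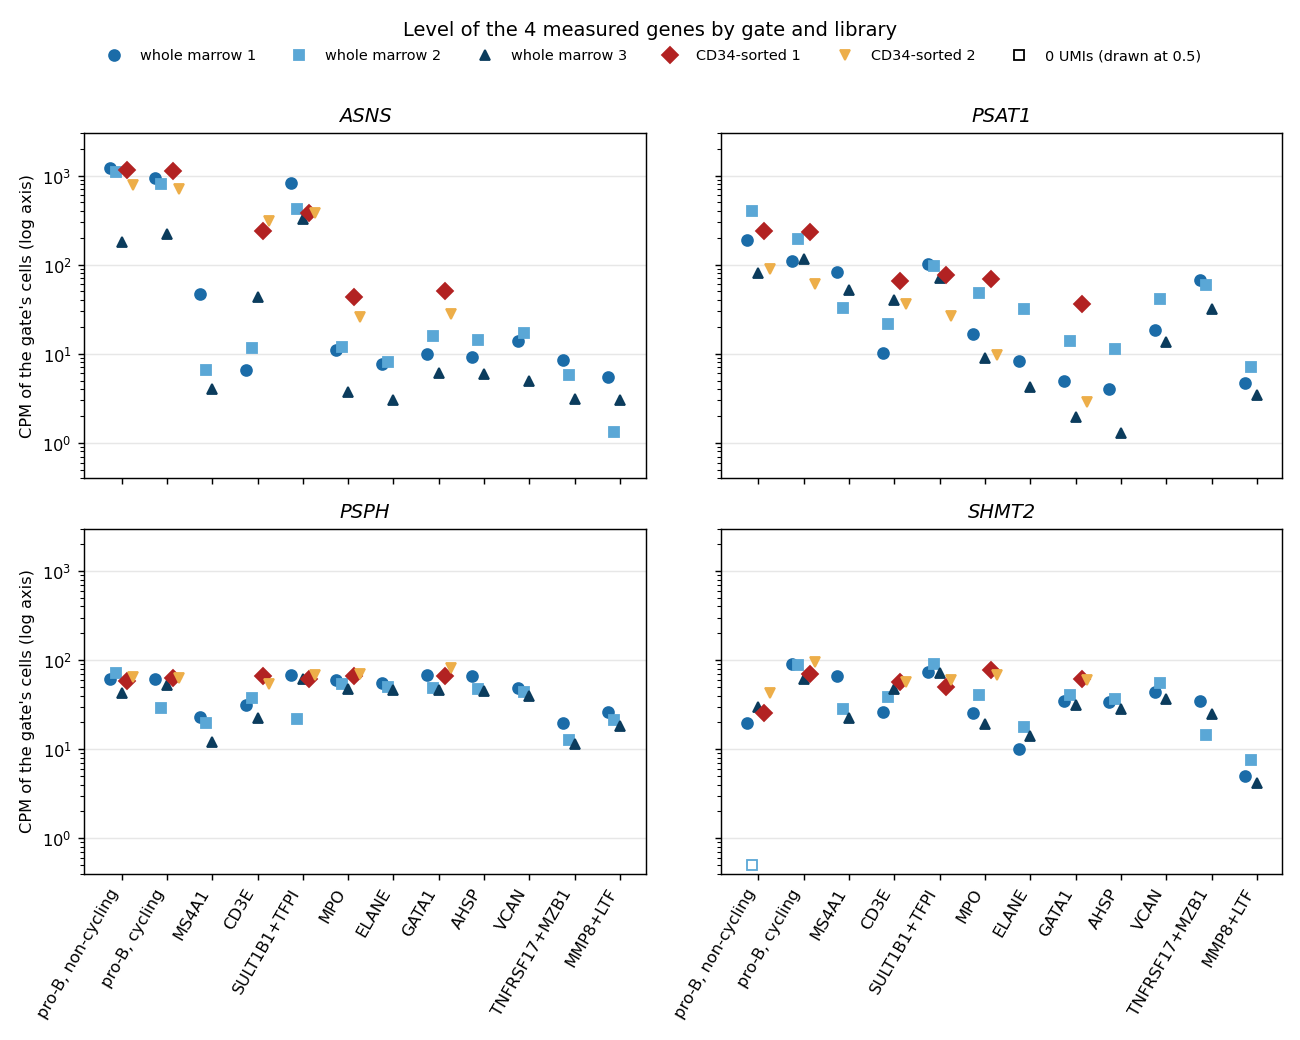
Level of ASNS, PSAT1, PSPH and SHMT2 (CPM, log axis) in 12 gates; each point is 1 library with at least 20 cells, and open symbols are sums with 0 UMIs drawn at 0.5 CPM. ASNS lies between 179.6 and 1212 CPM in non-cycling pro-B cells and at most 50.0 CPM in the MPO, ELANE, GATA1, AHSP and VCAN gates, while PSPH lies between 11.3 and 81.3 CPM in all 12 gates.

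Pro-B cells held most of the ASNS transcripts captured in every library except whole marrow 2. They were 2.92%, 1.22% and 5.99% of kept cells in whole marrows 1 to 3 and carried 78.5%, 45.2% and 72.4% of the ASNS UMIs. In sorted 1 and 2 they were 42.6% and 39.7% of cells and carried 80.9% and 81.3%. For PSAT1 the corresponding shares were 22.4%, 8.56% and 40.7% in whole marrow and 60.7% and 73.7% in sorted libraries. PSPH and SHMT2 UMIs lay mostly outside the pro-B gates, with shares of 0.948% to 31.5%. The share of all UMIs held by the pro-B gates was not counted, so these shares do not measure enrichment or depletion. In sorted libraries the median non-cycling pro-B cell in exactly 1 gate held 2161 and 2739 UMIs. The median kept cell there held 11622 and 14623, so the share of cells overstates the share of UMIs of such cells.

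Single cells gave the same picture for ASNS. At least 1 ASNS UMI was present in 68.8%, 61.3% and 8.92% of non-cycling pro-B cells in whole marrow and in 88.1% and 81.0% in sorted libraries, at median depths of 1863 to 3072 UMIs. After thinning each cell to 2000 UMIs, with shallower cells left out (69 to 858 cells used, and 13 in whole marrow 2), the shares were 77.4%, 76.9% and 15.9% in whole marrow and 82.8% and 70.5% in sorted libraries. Background was read in cells that should hold little ASNS. Granule-rich neutrophils, at median depths of 3091 to 5110 UMIs, gave 0.455% to 1.10%, or 0.132% to 0.420% after thinning. AHSP cells, at 38411 to 56426 UMIs, gave 15.3% to 23.5%, or 0.791% to 2.07% after thinning. The pro-B shares, whole marrow 3 included, lay above these at equal depth.

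The gate held cells with fewer VPREB1 UMIs in whole marrow 3. Cells without cycling UMIs were split by VPREB1 UMIs, a split chosen after the values were seen. With 10 or more VPREB1 UMIs, ASNS was 1405, 1358 and 615 CPM in whole marrows 1 to 3 (107, 19 and 24 cells) and 1247 and 852 CPM in sorted libraries. With 4 to 9 UMIs it was 177, 500.1 and 0 CPM in whole marrow and 760 and 593 CPM in sorted libraries. In whole marrow 3, 133 of the 157 gate cells held 3 to 9 VPREB1 UMIs, and these held 1 ASNS UMI in all. Cells just inside the gate, with 3 UMIs, held 0, 0 and 8.35 CPM in whole marrow (10, 2 and 52 cells). In sorted libraries such cells (15 and 12) held 254 and 108 CPM. Those just outside, with 2 UMIs, held 65.7 CPM (1 UMI in 12 cells), 0 and 0 in whole marrow and 109.9 and 47.8 CPM in sorted libraries. Sorted cells with 3 VPREB1 UMIs were deep, at medians of 11149 and 15318 UMIs, against 2400 and 3049 with 10 or more. The split is therefore not at equal depth, and the part of depth was not tested.

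**Figure D2:**
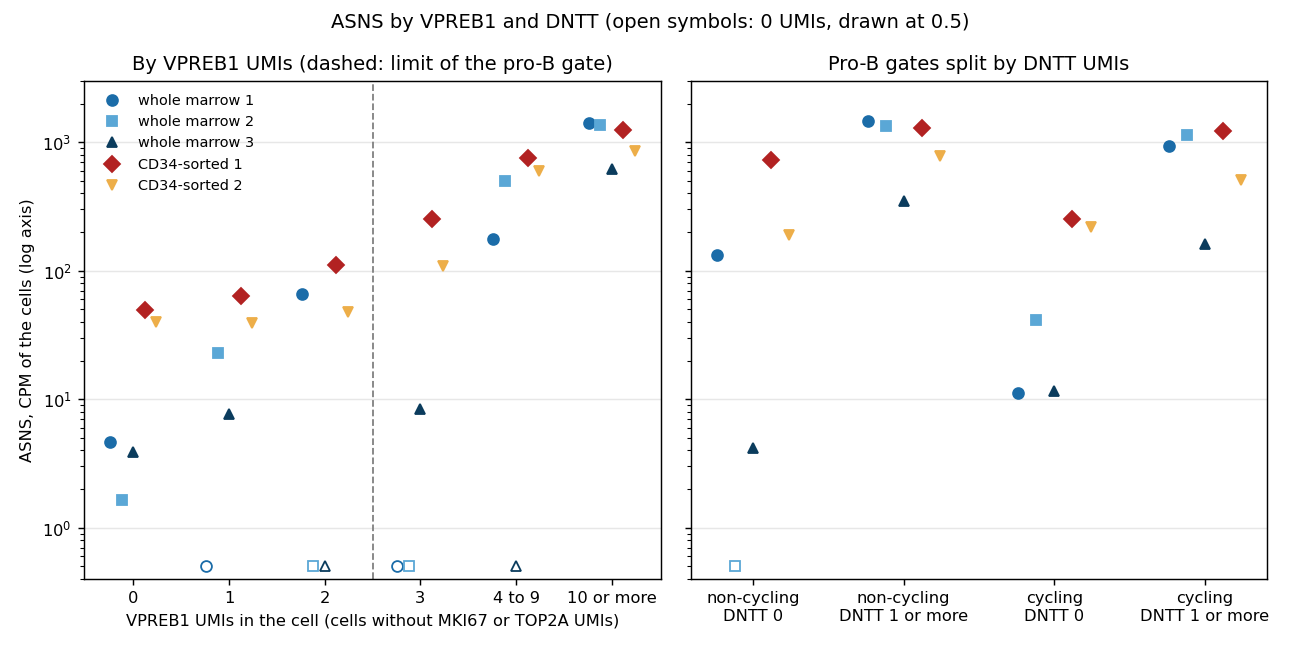
ASNS level (CPM, log axis), 1 point per library. Left, by VPREB1 UMIs in cells without cycling UMIs. Right, in non-cycling and cycling pro-B cells of exactly 1 gate, each without or with a DNTT UMI. The level is 615 to 1405 CPM at 10 or more VPREB1 UMIs, and non-cycling cells with DNTT lie above non-cycling cells without it in every library.

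ASNS was higher in pro-B cells with DNTT, a split also chosen after the values were seen and made among cells in exactly 1 gate. Non-cycling pro-B cells with a DNTT UMI held 1475, 1348 and 352 CPM of ASNS in whole marrow and 1284 and 777 CPM in sorted libraries. Those without one held 133, 0 and 4.20 CPM in whole marrow and 725 and 191 CPM in sorted libraries, over 9 to 124 cells each. The 9 cells of whole marrow 2 held no UMI, which allows up to 248 CPM. Of the 139 cells of whole marrow 3 in exactly 1 gate, 124 lacked DNTT and 15 held it. Cells with DNTT but no CD34 UMI still held 1497, 1335 and 210.1 CPM in whole marrow and 1450 and 747 CPM in sorted libraries. ASNS was thus also found in cells with no captured CD34 transcript. Summed DNTT in non-cycling pro-B cells was 3225, 2579 and 328 CPM in whole marrow and 2746 and 2764 CPM in sorted libraries, and PAX5, a B-lineage identity factor, was 1037, 1400, 3029, 765 and 572 CPM in the same order. Whole marrow 3 had the lowest DNTT and the highest PAX5. Its CD34 was also the lowest, at 31.4 CPM, and its VPREB3 and CD79B were the highest, at 1926 and 45.4 CPM. The pro-B label is therefore not well borne out for most gate cells of whole marrow 3. Their ASNS level cannot be read as that of pro-B cells at the stage of the other libraries, and the part of stage was not tested.

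PSAT1, which converts phosphohydroxypyruvate to phosphoserine, was also highest in 1 of the pro-B gates in every library, and libraries differed in all gates. In non-cycling pro-B cells it stood at 187 (whole marrow 1), 402 (2) and 79.8 CPM (3), and at 239 and 88.6 CPM in sorted libraries. Whole marrow 2 and sorted 1 were highest, and whole marrow 3 and sorted 2 were lowest. The same libraries were high and low in other gates: MPO cells held 16.7, 47.6 and 8.92 CPM in whole marrow and 69.4 and 9.74 CPM in sorted libraries, and GATA1 cells 4.93, 13.8, 1.94, 35.9 and 2.88 CPM. Library numbers put sorted 1 with marrow 2 and sorted 2 with marrow 3, which the labels do not state. Stem-like cells held 26.4 to 101 CPM of PSAT1, a range that overlaps that of the pro-B gates. MS4A1 B cells held 32.7 to 82.5 CPM and plasma cells 31.9 to 67.0 CPM, above most myeloid and erythroid gates.

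PSAT1 was detected in 29.0%, 41.9% and 8.28% of non-cycling pro-B cells in whole marrow and in 55.6% and 33.0% in sorted libraries. After thinning these shares were 32.1%, 53.8% and 10.1%, and 40.3% and 22.7%. Granule-rich neutrophils gave 0.300% to 0.552% thinned, so PSAT1 was above background in pro-B cells of each library. Split by DNTT, non-cycling pro-B cells in exactly 1 gate with a DNTT UMI held 193, 496 and 289.8 CPM of PSAT1 in whole marrow and 301 and 118 CPM in sorted libraries, and cells without it 26.6, 0 and 12.6 CPM and 123 and 19.1 CPM. In DNTT-positive cells sorted 2 was lowest, and the whole marrow 3 value rests on 14 PSAT1 UMIs in 15 cells.

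PSPH, the last enzyme of serine synthesis, was not higher in pro-B cells. Non-cycling pro-B cells held 61.6, 72.1 and 42.4 CPM in whole marrow and 57.6 and 64.8 CPM in sorted libraries. MPO cells held 59.2, 54.1 and 47.1 CPM and 65.9 and 70.1 CPM, and GATA1 cells 46.4 to 81.3 CPM. These ranges overlap. The lower levels were in mature cells: MS4A1 B cells held 23.3, 19.6 and 12 CPM, plasma cells 11.3 to 19.8 CPM and granule-rich neutrophils 18.4 to 26.4 CPM. No value of these 3 gates reached the lowest pro-B value of 42.4 CPM, and how many of all features do the same was not counted.

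SHMT2 differed between the pro-B gates. Non-cycling cells held 19.6, 0 and 29.9 CPM in whole marrow and 25.8 and 43.2 CPM in sorted libraries. The 0 was in 31 cells of whole marrow 2 and allows up to 30.9 CPM. Cycling cells held 90.1, 89.0, 60.8, 70.6 and 94.3 CPM, and the groups did not overlap. How many of all features show no such overlap was not counted. In the fit given below, 29.4% of features were called between these 2 gates. MPO cells held 25.8, 40.1 and 19.1 CPM in whole marrow and 78.2 and 68.9 CPM in sorted libraries. Stem-like cells held 49.7 to 91.0 CPM, all above the non-cycling pro-B cells. The ASNS and PSAT1 levels were known when the genes were chosen and do not test the label of asparagine and serine synthesis in pro-B cells, while PSPH and SHMT2 levels of non-cycling pro-B cells overlapped those of MPO cells.

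The 4 genes were then compared between cycling and non-cycling pro-B cells of the same library. Cells in exactly 1 gate were summed, sums of fewer than 20 cells were left out (the 15 cycling cells of whole marrow 2), and edgeR's quasi-likelihood test was fitted on all gate sums with the library as a block. Over 9818 features the test called 2886 (29.4%) at a Benjamini-Hochberg adjusted p under 0.05, 1145 higher (11.7%) and 1741 lower (17.7%) in cycling cells, with a median log2 difference of -0.18. The majority turned in 5 of 15 alternatives, to 1406 higher and 1278 lower with no low-count filter, 1282 and 1188 without whole marrow 3, 915 and 760 without sorted 2, 1139 and 801 with cells of several gates kept, and 434 and 413 in cells of at least 5000 UMIs. Of the 4 genes, SHMT2 alone passed. It rose by 1.51 ± 0.21 (SE) on the log2 scale (edgeR quasi-likelihood adjusted p = 1.84e-07), and it was called in each of the 15 alternatives run, at differences of 0.92 to 1.72. ASNS differed by -0.45 ± 0.32 (edgeR adjusted p = 0.323), PSAT1 by -0.39 ± 0.25 (edgeR adjusted p = 0.276) and PSPH by -0.25 ± 0.17 (edgeR adjusted p = 0.297), which did not pass the test. Cycling cells were deeper, with median UMIs of 8452 to 10930 against 1740 to 2739 in non-cycling sums, and no cause was tested. In cells of at least 5000 UMIs, an alternative added after seeing this gap, non-cycling sums remained only in sorted libraries (197 and 57 cells). There PSAT1 was 0.98 ± 0.27 higher in cycling cells (edgeR adjusted p = 0.0117), at 242 against 106 CPM in sorted 1 and 55.3 against 24.4 CPM in sorted 2, opposite to the sign over all depths. The difference between sorted and whole libraries in this contrast was not called for any of the 4 genes (edgeR adjusted p of at least 0.746, 2 residual degrees of freedom). Only 51 of all 7296 features tested were called there, so this does not show that sorted and whole libraries agree.

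**Figure D3:**
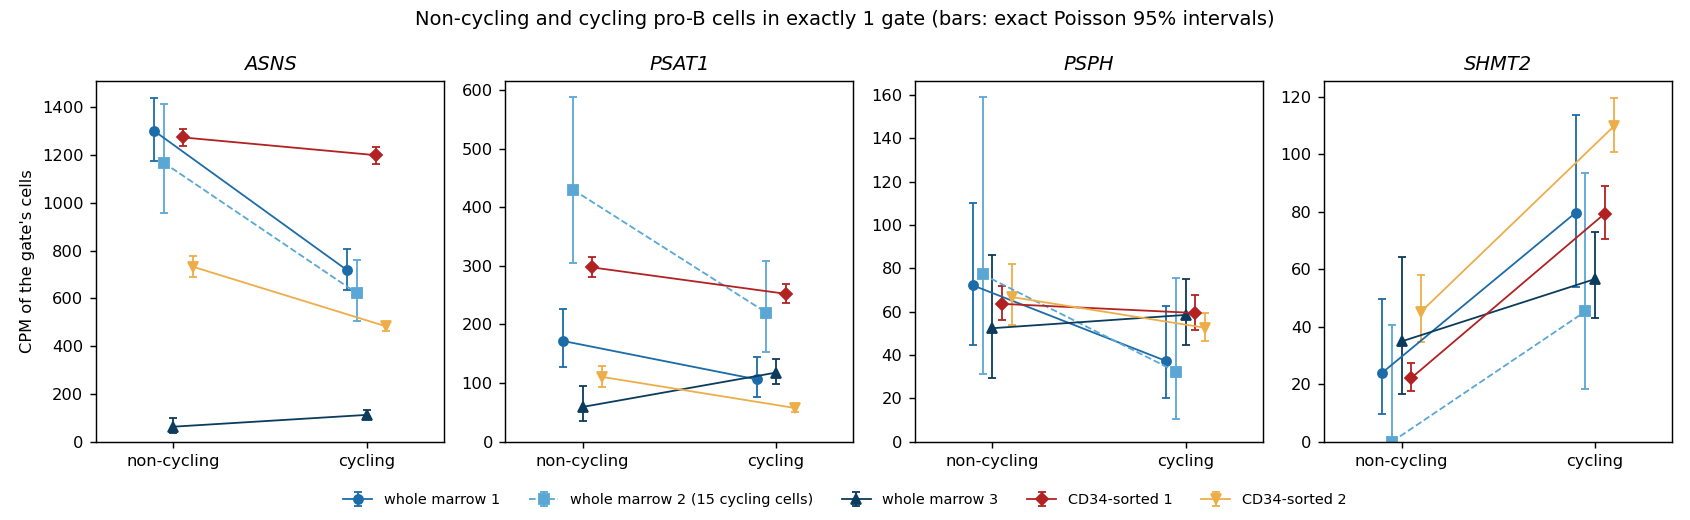
Level (CPM, linear axis) of ASNS, PSAT1, PSPH and SHMT2 in non-cycling and cycling pro-B cells in exactly 1 gate, joined by library, with exact Poisson 95% intervals; the dashed line is whole marrow 2, whose 15 cycling cells were not in the fit. SHMT2 is higher in cycling cells in each of the 4 fitted libraries, while ASNS and PSAT1 are higher in whole marrow 3 and lower in the other fitted libraries.

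Genes of the surrounding pathways were taken from 6 lists, and their counts are read beside the share of all features called. In the cycling comparison, the one-carbon and glycine list had 5 of 16 tested genes higher and 2 lower in cycling cells, with a median log2 difference of 0.014 beside -0.18 over all features (1 lower without whole marrow 1 or sorted 2). TYMS, which makes thymidylate from a one-carbon unit, rose by 2.33 ± 0.24, from 54.9 to 182 CPM in non-cycling sums to 523 to 638 CPM in cycling sums (edgeR adjusted p = 1.56e-08). The mitochondrial folate enzymes that follow SHMT2 rose as well, MTHFD2 by 1.71 ± 0.29 and MTHFD1L by 1.55 ± 0.20 on the log2 scale (edgeR adjusted p = 6.68e-06 and 1.49e-08). AMT, of the glycine cleavage system, was lower by a log2 difference of -1.81. TYMS, MTHFD2 and MTHFD1L were called in all alternatives run.

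Of the other lists in the cycling comparison, 4 had calls in both directions and lower glycolysis had none lower. The asparagine, aspartate and glutamine list had 3 of 14 genes higher and 1 lower (median 0.42), which became 5 and 0 without whole marrow 2 or 3 and 2 and 0 without sorted 1. CTPS1, which makes CTP with glutamine, rose by 1.06 ± 0.24. GLUL, glutamine synthetase, was lower by -0.58, a call lost without any 1 of the libraries (edgeR adjusted p of 0.0626 to 0.193). The tRNA synthetase list had 6 of 20 higher and 2 lower (median 0.37), which became 3 and 1 without sorted 1, 4 and 1 without sorted 2, 8 and 1 without whole marrow 2 and 9 and 1 without whole marrow 1. The ATF4 list had 1 of 16 higher and 3 lower (median 0.089; 2 higher without whole marrow 2 or 3). PCK2, a mitochondrial enzyme of gluconeogenesis, rose by 1.61 ± 0.29, and PPP1R15A and DDIT4, both stress-induced, fell by 1.87 ± 0.30 and 1.58 ± 0.31. ATF4 itself was 359 to 510.0 CPM in cycling and 499 to 679.9 CPM in non-cycling sums, a log2 difference of -0.48 ± 0.12 that was not called without sorted 2 or whole marrow 1 (edgeR adjusted p = 0.153 and 0.0793). Transporters had 3 of 13 higher and 3 lower (median 0.14; 1 and 3 without sorted 1) and lower glycolysis 2 of 5 higher (TPI1 by 0.81 and GAPDH by 0.80, median 0.34). Among transporters SLC7A8 fell by 3.19 on the log2 scale. In cells of at least 5000 UMIs most of these counts shrank, with none of the transporters called and 1 tRNA synthetase higher and 2 lower.

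Against stem-like cells, for which sorted libraries alone supplied 20 cells or more in exactly 1 gate, 3145 of 9818 features were called (32%), 1425 higher (14.5%) and 1720 lower (17.5%) in non-cycling pro-B cells. The median stem-like cell held 13579 and 15674 UMIs, against 1740 to 2739 in non-cycling pro-B sums, and the part of depth in these counts was not tested. The 2 members high in pro-B cells are given first. ASNS and PSAT1 differed by 2.91 ± 0.44 and 3.24 ± 0.35 on the log2 scale, PSPH by -0.23 ± 0.18 and SHMT2 by -0.93 ± 0.23, all as descriptions. With cells of several gates kept, ASNS differed by 0.46 and PSAT1 by 1.09. In pro-B cells of at least 5000 UMIs PSAT1 differed by 1.78 and SHMT2 by -0.26. In the asparagine list 0 of 14 genes were higher and 4 lower (2 without sorted 2; median -0.46 beside 0.00017 over all features), with GOT1, an aspartate aminotransferase, lower by -0.97. In the tRNA synthetase list 0 of 20 were higher and 8 lower (median -0.35), which became 0 and 1 without sorted 1, 0 and 3 without sorted 2, and 0 and 0 in cells of at least 5000 UMIs. The one-carbon list had 1 of 16 higher and 6 lower (median -0.46; 1 and 3 without sorted 1, 0 and 4 without sorted 2, 2 and 6 without whole marrow 2), with MTHFD1L lower by -1.01. Lower glycolysis had 0 of 5 higher and 1 lower (median -0.34; none called without either sorted library, 1 and 1 without whole marrow 3).

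The ATF4 list against stem-like cells had 4 of 16 genes higher and 5 lower (median -0.16), which became 1 and 1 without sorted 1, 2 and 4 without sorted 2, and 3 and 8 without whole marrow 3. DDIT4 was higher by 2.05 ± 0.37 and JDP2, a repressor of the AP-1 family, lower by -2.85, both called in all alternatives run. ATF4 was 499 to 679.9 CPM in non-cycling pro-B sums and 384 to 390.2 CPM in stem-like sums, a difference of 0.43 ± 0.15 (edgeR adjusted p = 0.0286) that was lost without sorted 1, sorted 2 or whole marrow 1 (edgeR adjusted p = 0.231, 0.247 and 0.0891). In the transporter list 3 of 13 were higher and 3 lower (median 0.16; 2 and 0 without sorted 1). SLC7A5, the large neutral amino acid carrier, was higher by 1.64 ± 0.32, at 11 to 38.4 against 4.18 to 6.79 CPM.

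Against MPO cells, 5096 of 9818 features were called (51.9%), 2667 higher (27.2%) and 2429 lower (24.7%). More were lower than higher in 8 of 15 alternatives, among them 2276 higher and 3060 lower with no low-count filter and 2222 and 2742 without whole marrow 3, while RLE factors gave 2980 and 2115. The median MPO cell held 952 to 30158 UMIs by library. ASNS stood 5.05 ± 0.37 above MPO cells on the log2 scale and PSAT1 2.11 ± 0.25, while PSPH differed by -0.26 ± 0.16 and SHMT2 by -1.53 ± 0.21. In pro-B cells of at least 5000 UMIs the PSAT1 difference was 0.78 and that of SHMT2 -0.85, and PSPH differed by -0.83 with cells of several gates kept. The neighbouring genes were lower more often than higher: 0 of 14 asparagine-list genes higher and 9 lower (median -0.77 beside 0.071), and 0 of 20 tRNA synthetases higher and 13 lower (median -0.67). Both sets of counts were lower in cells of at least 5000 UMIs, at 2 genes lower in each list. CAD, GOT2, HARS1 and FARSA stayed called in every alternative. The one-carbon list had 1 of 16 higher and 6 lower (median -0.44), with GCSH, of the glycine cleavage system, lower by -1.60, and lower glycolysis 1 of 5 higher and 4 lower (median -1.15), with ENO1 lower by -1.41. The higher gene of each of these lists depended on single libraries: AMT was not called without sorted 1 (edgeR adjusted p = 0.212), nor LDHB, a lactate dehydrogenase subunit, without sorted 1, sorted 2, whole marrow 1 or whole marrow 2 (edgeR adjusted p = 0.247, 0.405, 0.0952 and 0.0516).

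The ATF4 list against MPO cells split, with 6 of 16 higher and 5 lower (median -0.20; 5 and 3 without sorted 1, 6 and 3 without whole marrow 2). ATF4 was 0.85 ± 0.11 higher (edgeR adjusted p = 1.9e-08), ATF3, a stress-induced partner, 3.59 higher and DDIT4 2.36 higher, and JDP2 was lower by -3.08. Among transporters, 3 of 13 were higher and 3 lower (median 0.018). SLC7A5 was higher by 2.01 ± 0.31 (edgeR adjusted p = 2.99e-07), and SLC1A4 and SLC1A5, carriers of small neutral amino acids and glutamine, were lower by -3.09 and -2.27.

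**Figure D4:**
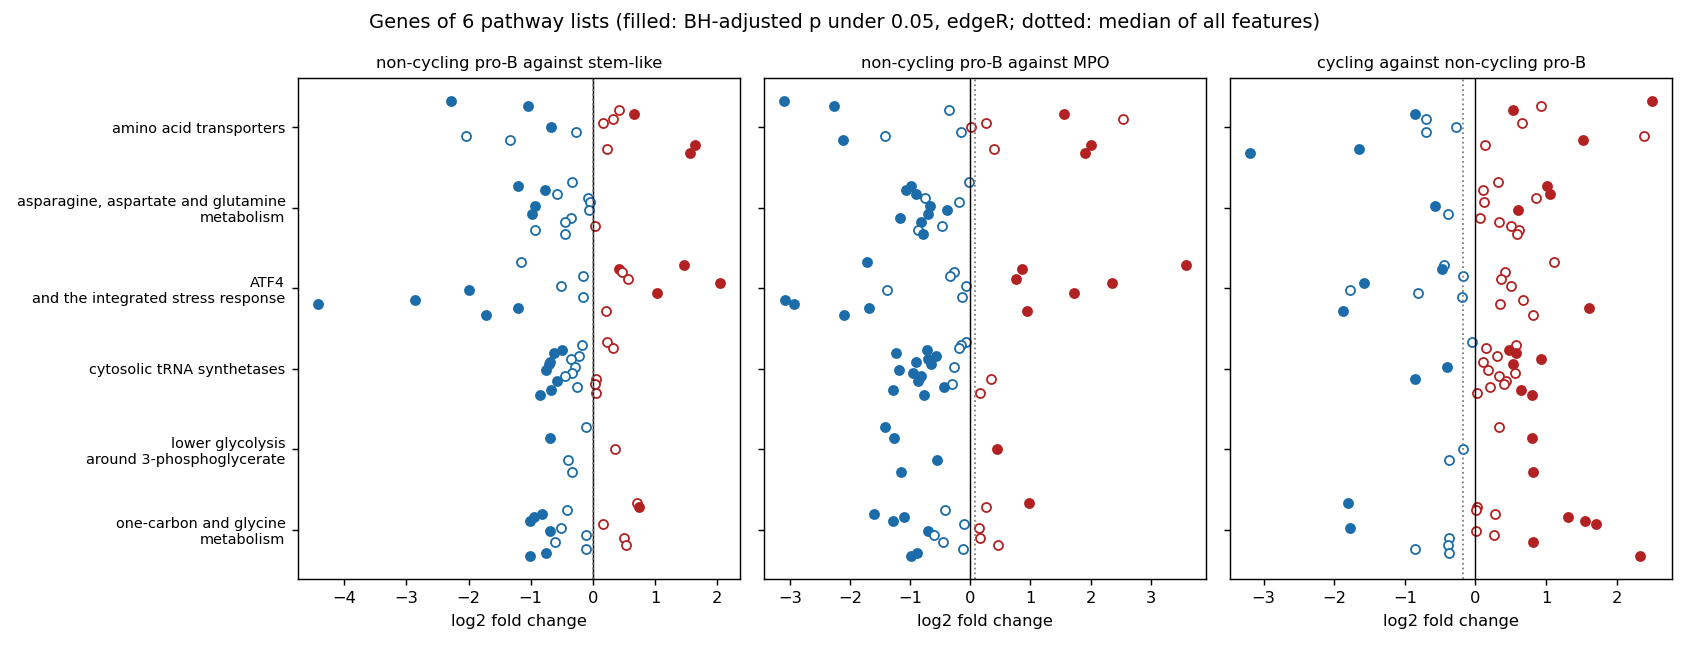
Log2 differences of the tested genes of 6 pathway lists in 3 comparisons of pro-B cells; each point is 1 gene, filled where the adjusted p was under 0.05, and the dotted line is the median of all features tested. Against MPO cells the filled tRNA synthetases (13 of 20) and asparagine-list genes (9 of 14) all lie below 0.

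Fewer features were called against MS4A1 B cells, which only whole marrow supplied: 831 of 9818 (8.46%), 442 higher (4.5%) and 389 lower (3.96%), a majority that turned in 9 of 15 alternatives. ASNS was 5.80 ± 0.80 higher in non-cycling pro-B cells on the log2 scale, PSAT1 1.87 ± 0.45 and PSPH 2.63 ± 0.46 higher, and SHMT2 differed by -0.18 ± 0.45 (0.24 without whole marrow 1). With cells of several gates kept, the PSAT1 difference was 1.06, that of PSPH 1.17 and that of SHMT2 -0.92. In pro-B cells of at least 5000 UMIs PSAT1 differed by 0.71 and SHMT2 by 0.51. Of the 84 tested genes of the 6 lists, 6 were called higher (ATF4, DDIT4, DLD, GLUL, KARS1 and LDHB) and 2 lower (GARS1 and GCSH). Each of these calls was lost on leaving out at least 1 library: 5 of the higher ones and 1 lower without whole marrow 2, and 4 higher and both lower without whole marrow 3. ATF4 was 0.77 ± 0.16 higher (edgeR adjusted p = 0.000733), at 499 to 679.9 against 259 to 302 CPM, and was not called without whole marrow 2 (edgeR adjusted p = 0.0534).

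Over all kept cells, sorted libraries held 322 and 217 CPM of ASNS and whole marrow 34.9, 19.1 and 14.4 CPM. PSAT1 was 89.0 and 22.1 CPM against 15.7, 27.6 and 13.1 CPM, PSPH 62.1 and 66.5 against 46.1, 39.9 and 35.0 CPM, and SHMT2 57.1 and 64.9 against 24.8, 31.9 and 22.4 CPM. PSAT1 overlapped between the kinds of library. The share of all features without such overlap was not counted. In such sums more cells of a type and more RNA per cell cannot be told apart. The log2 differences were 3.27 ± 0.44 for ASNS, 1.30 ± 0.60 for PSAT1, 0.38 ± 0.16 for PSPH and 0.93 ± 0.16 for SHMT2, beside 4161 of 12507 features called (33.3%), 1992 higher (15.9%) and 2169 lower (17.3%). The difference of PSAT1 was -0.029 without sorted 1. Of 97 tested genes of the 6 lists, 16 were higher and 12 lower in sorted libraries. Without sorted 1, 10 and 7 of these calls were lost, and without sorted 2, 12 and 6. The ATF4 list had 2 of 21 higher and 5 lower (median -0.25 beside 0.051 over all features). Lower glycolysis had 1 of 5 higher and 2 lower (median -0.93). Transporters had 4 of 18 higher and 3 lower, and tRNA synthetases 2 of 20 higher and 1 lower. In the same comparison the one-carbon list had 4 of 19 genes higher and 0 lower (1 higher without whole marrow 2 or either sorted library, 2 without whole marrow 3) and the asparagine list 3 of 14 higher and 1 lower (0 and 0 without sorted 2, 0 and 1 without whole marrow 3, 1 and 1 without whole marrow 2, 1 and 0 without sorted 1).

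The genes whose level followed ASNS most closely over 38 gate sums of 5 libraries were ranked by Pearson's r of log2(CPM + 1), among 7380 features of at least 5 CPM on average. The sums share libraries and depth, so r is a description. DPEP1, a membrane dipeptidase, led with r = 0.908, followed by GAS6 (0.897), ESR1 (0.895), DNTT (0.890), NPNT (0.888), an unnamed gene, ENSCAFG00000011251 (0.880), SLC17A8 (0.871), ZNF608 (0.869) and PCP4L1 (0.867). DPEP1 held 76.8 to 1075 CPM in non-cycling pro-B cells, 0 in MS4A1 B cells, 0 to 2.71 in MPO cells and 28.9 to 52.5 in stem-like cells. None of the serine synthesis members was among the leading genes: PSAT1 ranked 247 (r = 0.651), PSPH 639 (0.559) and SHMT2 3078 (0.311).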

How the data were processed

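The authors deposited unnormalized UMI counts for every gene and barcode, made with Cell Ranger (7.0.1 per the file headers, 7.1.0 per the submitters' processing notes) on CanFam 3.1, per the same notes. Genes are named by the files' symbols, and no genome or sequence of that build was used here, so the promoter motif search that had been planned was not run. Counts of kept cells were summed per gate and library. Sums of at least 20 cells, from cells in exactly 1 gate, entered 1 edgeR quasi-likelihood fit (edgeR 4.0.16, R 4.3.3, TMM factors, low-count filter by group, library as block, 38 sums, 22 residual degrees of freedom), with Benjamini-Hochberg adjustment over all features at 0.05. Whole and sorted libraries were compared over all kept cells without a block. Called doublets (1036) were kept in the main values and removed in an alternative.

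The members and the lists were chosen with earlier results of these data known. The text names all members, up to 4 called genes per list and comparison with the largest changes, ATF4 and genes called in every alternative (added after their values were seen), and the 10 genes most like ASNS. Alternatives were DESeq2 1.42.0, RLE factors, no low-count filter, no block, a mitochondrial limit of 20%, VPREB1 of at least 5 UMIs, at least 10 cells per sum, doublets removed, cells of several gates kept, each library left out and, added later, pro-B cells of at least 5000 UMIs. On simulated counts of 8544 genes, the cycling, stem-like, MPO and MS4A1 comparisons recovered 95%, 98%, 97% and 60% of 4-fold and 41%, 29%, 52% and 14% of 2-fold changes. There all gates shared the same expression profile and all genes the same dispersion, with no library effect. Only 200 genes were changed, in non-cycling pro-B sums. The real gates differed in many more features, so these rates do not give the power of the real comparisons. Differences between sorted 1 and 2 correlated with those between whole marrows 2 and 3 at r = 0.396 in MPO cells and 0.218 in non-cycling pro-B cells, against -0.255 to 0.0798 for the other whole-marrow pairs. P-values of the gate fit measure the scatter of gate sums between libraries after library levels are removed, pooled over all gates. Libraries share dogs, so these p-values do not measure a spread between independent dogs. One gene that the rule for likeness to ASNS names is not reported here.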

Additional observations from a re-analysis of the deposited data

How the results depend on the processing

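Of 70 alternative counts of called genes, 56 stayed within 1.5 times the main count. Without the library block, the fit called 1621 features in the cycling comparison and 1884 against stem-like cells. Keeping cells of several gates gave 1292 against MS4A1 B cells. With pro-B cells of at least 5000 UMIs only, the counts were 847 (cycling), 822 (stem-like), 1705 (MPO) and 466 (MS4A1 B). Leaving out a library gave 1675 to 2754 calls for cycling, 1501 to 3209 against stem-like cells, 3801 to 4964 against MPO cells, 412 to 736 against MS4A1 B cells and 1757 to 4670 for sorted against whole marrow. With a dog block the last comparison called 5521. That block put sorted 1 with marrow 2 and sorted 2 with marrow 3 by their numbers, which the labels do not state. It also leaves fewer residual degrees of freedom than the 3 of the unblocked fit. DESeq2 split the MS4A1 calls 369 higher and 543 lower, against 442 and 389, and moved the median log2 difference of all features from 0.14 to 0 there and from 0.071 to 0.20 against MPO cells. Which direction held more calls turned in 5 of 15 alternatives for cycling, 8 against MPO cells and 9 against MS4A1 B cells, and in none against stem-like cells (15 run) or between sorted and whole marrow (10 run).

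For the members, SHMT2 against MS4A1 B cells ranged from -0.67 to 0.24 when a library was left out, turning from -0.18 to 0.24 without whole marrow 1 and to 0.51 in cells of at least 5000 UMIs. PSAT1 in sorted against whole marrow, 1.30 in all libraries, ranged from -0.029 without sorted 1 to 1.97 without sorted 2, and in cycling cells it went from -0.39 to 0.98 at 5000 UMIs or more. PSPH in cycling cells went from -0.25 to 0.053 with cells of several gates kept. The causes were not tested. Of the 60 alternatives of the members' cycling differences, 58 kept direction and call. Sums of 9 to 31 cells in whole marrow 2 limit what can be seen of SHMT2 there.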
